A study of Mus musculus with 12 samples.

Results

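Genes of epithelial repair and of the epidermal growth factor (EGF) family were followed through total RNA-Seq libraries of mouse colon and whole blood. The 9 genes, of 53801 counted, were taken by symbol: the repair markers Ly6a, Clu, Anxa1 and Anxa3, the EGF receptor ligands Areg, Ereg, Hbegf and Tgfa, and the receptor gene Egfr. All 9 were in the normalized table of the colon (32689 genes), and 4 (Ly6a, Clu, Anxa1 and Anxa3) were in that of the blood (25514 genes). The study drew colon and blood from 6 male C57BL/6 mice aged 8 weeks. Mice 1, 2 and 4 are labelled ulcerative colitis (UC) and had received 1.5% dextran sulfate sodium (DSS) in the drinking water for 7 days; mice 7, 8 and 9 are labelled control and drank water without DSS. All were killed on day 8, so the groups were UC colon, control colon, UC blood and control blood, with 3 libraries in each. DSS damages the colonic epithelium chemically, so the model is one of acute injury, and the labels name no genetic change. The study chose its RNA-Seq mice from larger groups by their disease activity.

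When the gut lining is wounded, cells at the wound edge leave their usual program of renewal and express genes of the fetal intestine, of which Ly6a (the surface protein Sca-1), Clu (the secreted chaperone clusterin), and the annexins Anxa1 and Anxa3, which bind membrane phospholipids, are widely used markers. Amphiregulin (Areg), epiregulin (Ereg), heparin-binding EGF-like growth factor (Hbegf) and transforming growth factor alpha (Tgfa) are made as membrane-anchored precursors, cut free by metalloproteases, and bind the EGF receptor. The receptor then activates the kinase ERK, which drives division and migration and also induces genes that dampen the receptor.

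The part of each ligand that meets the receptor is a short loop held together by 6 cysteines, and its coding sequence is shown because it is what these ligands have in common, whatever their levels in the libraries. The coding DNA of the ligands was searched for the cysteine spacing of this domain in the GENCODE transcripts (GRCm38); each of 6 ligands searched held 1 such domain of 36 residues, encoded by 108 bases with 1 intron inside it. The same spacing occurred in 60 of 21877 coding genes (0.27%). Cysteine codons are in capitals, reading 5′ to 3′ on the coding strand from the first to the last cysteine, for Areg (chr5:91143614-91144364, plus strand), Ereg (chr5:91088496-91089111, plus strand), Tgfa (chr6:86263200-86269960, plus strand) and betacellulin, Btc (chr5:91362421-91366197, minus strand), a further ligand of the receptor that is no member. The coordinates include the intron.
Areg: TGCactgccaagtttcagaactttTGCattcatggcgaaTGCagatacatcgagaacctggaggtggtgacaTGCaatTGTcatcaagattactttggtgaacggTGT
Ereg: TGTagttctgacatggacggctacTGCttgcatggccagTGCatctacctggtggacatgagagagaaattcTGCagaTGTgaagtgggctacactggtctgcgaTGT
Tgfa: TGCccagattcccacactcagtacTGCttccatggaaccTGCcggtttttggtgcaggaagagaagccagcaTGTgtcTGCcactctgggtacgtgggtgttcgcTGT
Btc: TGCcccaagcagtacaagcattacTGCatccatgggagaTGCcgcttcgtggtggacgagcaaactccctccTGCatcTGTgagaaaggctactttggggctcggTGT
All 6 cysteine codons stand at the same places in these domains, which the search by cysteine spacing largely fixed. Over the 15 pairs of the 6 ligands, between 49 and 67 of the 108 bases were identical (45.4% to 62.0%), cysteine codons included. Ereg and Tgfa were the pair with the lowest identity.

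Ereg, Areg, Btc and the ligand Epgn (epigen) lie within 1 stretch of chromosome 5. In the GRCm38 annotation (GENCODE vM21), Ereg spans chr5:91074622-91093646 and Areg chr5:91139599-91148432, both on the plus strand, with 4128 and 1215 exon bases. Tgfa spans chr6:86195223-86275719 (plus strand, 6490 exon bases), Hbegf chr18:36504927-36515805 (minus strand, 4834) and Egfr chr11:16752203-16918158 (plus strand, 11326). Of the repair markers, Ly6a spans chr15:74994877-74998031 (minus strand, 1205 exon bases), Clu chr14:65968483-65981547 (plus strand, 3437), Anxa1 chr19:20373428-20390944 (minus strand, 2911) and Anxa3 chr5:96793339-96845966 (plus strand, 3643). Ly6a belongs to a family of similar neighbours (Ly6c1, Ly6c2, Ly6i and others), so reads could have been shared between them in the counting and its level is uncertain to that extent. Exons of Anxa3 overlap Gm42603 on the same strand (at most 1183 counts in a colon library), and those of Ereg overlap the antisense gene Gm19610 (at most 45).

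Colon libraries held 69181049 to 103662306 counts and blood libraries 80867247 to 142536804. Genes of 7SL, an abundant cytoplasmic RNA, took 4.90% to 6.50% of a colon library and 35.9% to 65.4% of a blood library. The tissue is stated in a pair of label fields that contradict each other; groups follow the field named tissue, and the summed counts of 8 epithelial marker genes were 741845 to 1116110 in libraries taken as colon and 79.0 to 248.4 in those taken as blood, normalized within each tissue. The order of several gene groups in the colon cut across the disease labels. The neutrophil gene S100a8 had normalized counts in the colon of 5370, 33.1 and 22.3 in mice 1, 2 and 4 (labelled UC) and of 1888, 75.6 and 13337 in mice 7, 8 and 9 (labelled control). Its 3 highest values in the blood also lay in mice 1, 7 and 9. The 3 highest colon values lay in these mice for 7 of 7 macrophage genes, 6 of 6 T cell genes and 11 of 16 further repair genes. They did so for 18.3% of the 22123 colon genes with a mean of at least 10 normalized counts. Each log2FC between labelled groups rests on the labels as given. The groups are therefore called "labelled UC" and "labelled control" throughout, and the values of each member are given by mouse. The normalized count is the count divided by the size factor of its library, within 1 tissue. These are bulk samples, in which fewer cells of a type and less RNA per cell cannot be told apart.

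No member was significantly differentially expressed (SDE) between colon libraries labelled UC and labelled control. Of 22238 genes tested with edgeR's quasi-likelihood test, 1 (0.0045%) was SDE (Benjamini-Hochberg adjusted p of at most 0.05 and an absolute log2 fold change, log2FC, above 1), and it was not a member; 313 genes had an unadjusted p under 0.05. The adjusted p was 1.000 for each of the 9 members. The highest and lowest of the 6 colon libraries differed 63.5-fold for Ereg, 9.58-fold for Tgfa, 6.54-fold for Hbegf, 6.11-fold for Ly6a, 4.18-fold for Clu, 3.00-fold for Areg, 2.67-fold for Egfr, 2.28-fold for Anxa3 and 2.20-fold for Anxa1.

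**Figure D1:**
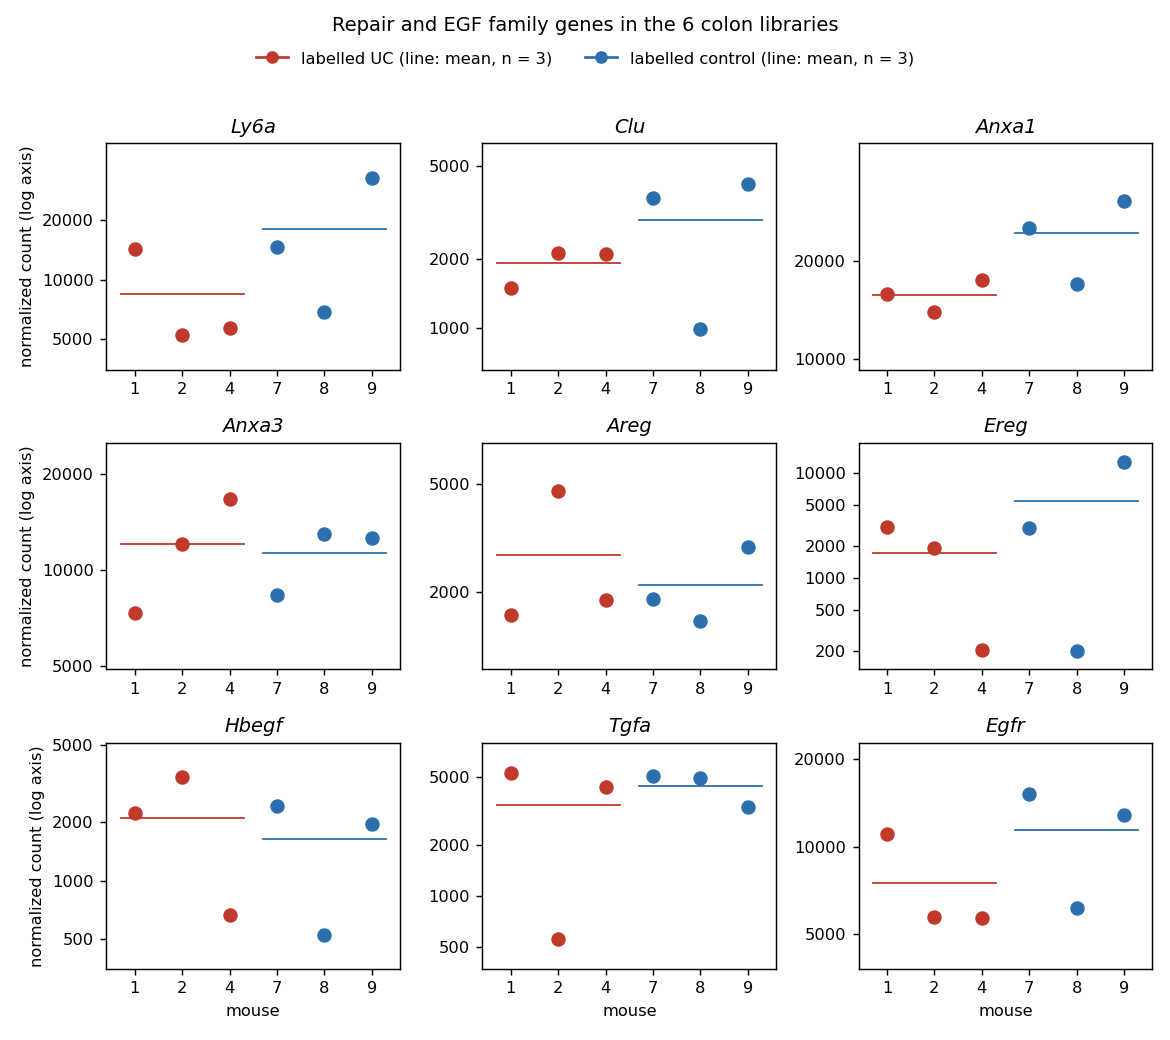
Normalized count (log axis) of each of the 9 genes in the 6 colon libraries by mouse; red points are labelled UC and blue points labelled control, and lines mark the mean of each labelled group (n = 3). Ereg spans 63.5-fold between mice 8 and 9, and Tgfa has 1 low library, mouse 2, at 556 normalized counts.

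Ly6a, the Sca-1 gene, had 14318, 5293 and 5690 normalized counts in the colon of mice 1, 2 and 4 and 14616, 6901 and 32318 in mice 7, 8 and 9. The values of mice 1, 7 and 9 lay above those of the other three, and each labelled group held both high and low libraries. The means were 8434 ± 5100 (labelled UC, SD, n = 3) and 17945 ± 13032 (labelled control, n = 3), and the log2FC was -1.09 (SE 0.63, unadjusted p = 0.132, edgeR quasi-likelihood test).

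Clusterin (Clu) had 1501, 2112 and 2103 normalized counts in mice 1, 2 and 4 and 3639, 998 and 4177 in mice 7, 8 and 9. The labelled control group held both the 2 highest and the lowest library, and its spread (2938 ± 1701, SD, n = 3) was wider than that of the libraries labelled UC (1905 ± 350). The log2FC was -0.63 (SE 0.50).

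Anxa1, which limits neutrophil recruitment and promotes wound closure, was the 1 member whose labelled groups did not overlap on the scale of the test. That scale was counts scaled to the library total (CPM) and corrected by edgeR's TMM factors. Anxa1 had 15839, 13912 and 17424 normalized counts in mice 1, 2 and 4 and 25216, 17016 and 30605 in mice 7, 8 and 9. On the normalized scale mouse 4 thus lay just above mouse 8. The same held for CPM per kb of exon without TMM factors, over the genes of the normalized table (78.3 and 77.0). In CPM scaled by edgeR's TMM factors the means were 183.0 ± 19.7 (labelled UC, SD, n = 3) and 284.6 ± 76.1 (labelled control), with a log2FC of -0.64 (SE 0.24, unadjusted p = 0.0348 and adjusted p = 1.000 by edgeR's quasi-likelihood test). Of all genes tested, 5.41% had groups that did not overlap, against 1 of 9 members.

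Anxa3 had 7320, 12088 and 16711 normalized counts in mice 1, 2 and 4 and 8340, 13014 and 12639 in mice 7, 8 and 9. Its lowest values lay in mice 1 and 7, where Ly6a was high, and its highest in mouse 4. The log2FC was 0.07 (SE 0.34).

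Among the ligands, amphiregulin (Areg) had 1646, 4698 and 1871 normalized counts in mice 1, 2 and 4 and 1888, 1566 and 2928 in mice 7, 8 and 9. Mouse 2 was the highest, 1.60-fold above the next library, and the other 5 lay between 1566 and 2928. The log2FC was 0.36 (SE 0.46) and turned to -0.29 without mouse 2.

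Epiregulin (Ereg) varied the most of the 9 genes. It had 3095, 1919 and 208 normalized counts in mice 1, 2 and 4 and 3017, 203 and 12880 in mice 7, 8 and 9. Mice 4 and 8 were near 200, mouse 9 was 4.16-fold above the next library, and the low and the high values were spread over both labelled groups. The means were 1741 ± 1452 (labelled UC, SD, n = 3) and 5367 ± 6657 (labelled control), and the log2FC of -1.62 (SE 1.41) became 0.08 without mouse 9.

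Hbegf had 2244, 3438 and 664 normalized counts in mice 1, 2 and 4 and 2441, 526 and 1966 in mice 7, 8 and 9. Mice 4 and 8 were the lowest, as for Ereg, but mouse 2 was the highest. The log2FC was 0.36 (SE 0.72), and was -0.19 without mouse 2 and -0.06 without mouse 8.

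Tgfa, which differentiated colonocytes are known to make, had 5332, 556 and 4364 normalized counts in mice 1, 2 and 4 and 5114, 4931 and 3330 in mice 7, 8 and 9. A single library, mouse 2, was low, 5.98-fold below the next, in the animal in which Areg and Hbegf were highest. The log2FC was -0.40 (SE 0.72), and was 0.10 without mouse 2. The receptor gene Egfr had 11089, 5722 and 5705 normalized counts in mice 1, 2 and 4 and 15221, 6157 and 12828 in mice 7, 8 and 9. Its 3 highest values lay in mice 1, 7 and 9, as for Ly6a and Ereg, and its log2FC was -0.61 (SE 0.41).

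The members therefore did not share 1 profile across the colon libraries. For Ly6a, Ereg and Egfr, 3 of 9 members, the 3 highest values lay in mice 1, 7 and 9, as they did for 18.3% of the 22123 colon genes with a mean of at least 10 normalized counts. Areg and Hbegf (2 of 9) were highest in mouse 2, against 14.6% of all genes, and Ly6a, Anxa1 and Tgfa (3 of 9) were lowest there, against 13.0%. The difference between 2 profiles was taken as the root mean square (RMS) difference of log2(normalized count + 1). Each gene was centred on its mean over the 6 libraries but not scaled by its range. RMS therefore depends on how widely genes varied as well as on their order of libraries. Ereg and Ly6a, with the same 3 highest libraries, differed by 1.51. The closest members were Anxa1 and Egfr (RMS 0.39), Anxa1 and Clu (0.47) and Egfr and Ly6a (0.50), and the farthest were the ligands Ereg and Tgfa (2.61). Areg and Hbegf differed by 0.79 and Areg and Ereg, neighbours on chromosome 5, by 1.997.

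For each of the 5 members that varied at least 4-fold (a log2 range of 2), the 3 protein-coding genes with the nearest profile over the 6 colon libraries were listed, as a description. Ly6a was nearest to Itgb8, an integrin subunit (RMS 0.13), Ptgir, the prostacyclin receptor (0.21), and Adm, the peptide hormone adrenomedullin (0.22). Clu was nearest to Gimap8, a GTPase of lymphocytes (0.13), Gpr183, an oxysterol receptor of immune cells (0.14), and Hspb1, a small heat shock protein (0.16). Among the 3 nearest to Ereg were the cytokine gene Clcf1 (0.70) and the activin subunit Inhbb (0.72). Hbegf was nearest to Tnfrsf12a, the receptor for TWEAK (0.37), the immediate early gene Nr4a2 (0.38) and Pcbp4 (0.39), and Tgfa to Igf2 (0.23), Cfap74 (0.32) and Tgm5 (0.37).

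Of the other ligands of the receptor family, Nrg1, a ligand of ERBB3 and ERBB4 known from the stroma, had 1695, 801 and 376 normalized counts in mice 1, 2 and 4 and 3954, 514 and 5741 in mice 7, 8 and 9, with its highest values in mice 1, 7 and 9. Epgn had 51.1, 13.9 and 6.60 and then 70.8, 10.1 and 223.2, with the libraries in the same order as for Nrg1. Egf (148.5 to 736.9) and Btc (493.5 to 986.5) did not follow that order, since Egf was lowest in mouse 9, and Nrg2, Nrg3 and Nrg4 stayed at or below 152.1. None of the 7 was SDE (3 higher and 4 lower in libraries labelled UC, median log2FC -0.19, against -0.01 over all genes tested). Nrg4, at 39.2 to 78.6 normalized counts, was the 1 of the 7 whose labelled groups did not overlap, against 5.41% of all genes tested.

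The other receptors were Erbb2 (12034 to 27553 normalized counts) and Erbb3 (33719 to 67444), both lowest in mouse 9, while Erbb4 was at 13.9 or less. Of the 5 genes of ligand release, the proteases Adam10 and Adam17 that cut the precursors and their partners Rhbdf1, Rhbdf2 and Frmd8, none was SDE, and Adam17 and Frmd8 varied least (1.34-fold and 1.40-fold between libraries). Rhbdf2, an adaptor that carries ADAM17 to the cell surface, was highest in mice 1, 7 and 9 (2142, 1769 and 2987 normalized counts, against 1012 to 1146 in the others). Adam10 was also highest in these mice (10361 to 12272, against 6465 to 8646 in the others). This made 2 of 5 release genes, against 18.3% of all genes.

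Of 13 genes of feedback on the receptor and ERK, 10 were highest in mouse 2, as were 5 of 9 further ERK response genes, against 14.6% of all genes. For some the margin was small: Cbl had 12355 there and up to 11305 elsewhere, Socs4 4539 and 4123, and Dusp5 1260 and 1189. By the naming rule, Errfi1, which binds and inhibits the receptor, had 13016, 22897 and 6355 normalized counts in mice 1, 2 and 4 and 9826, 6897 and 8267 in mice 7, 8 and 9. Cbl, a ubiquitin ligase that marks the receptor for degradation, had 7908 to 12355, also highest in mouse 2, while Jun (5752 to 9123) and Fos (5327 to 8872) were not. Dusp6, the ERK phosphatase, and Egr1, an immediate early transcription factor, were among the genes picked after their values were seen. Dusp6 had 16625 in mouse 2 against 3531 to 10381 in the others, and Egr1 6922 against 939 to 2092. Ier3, Etv5 and Dusp4, also picked later, were not highest there. Ier3 had 514 in mouse 2 against 341 to 2892, Etv5 739 against 364 to 1552, and Dusp4 766 against 463 to 1288. Both lists were chosen with earlier results of these data known. None of the 22 genes was SDE between the labelled groups, and the median log2FC was 0.17 for the feedback genes and 0.30 for the ERK response genes. Mouse 2 also held the highest values for 5 of 5 stem cell genes, such as Rgmb (2824 to 4152) and Smoc2 (775 to 2603), and for 6 of 6 smooth muscle genes (Myh11 among them), whose summed normalized count was 534675 there and 128101 to 409540 in the other libraries. It had the lowest value of Krt20, a keratin of differentiated surface cells that was also picked later (21145, against 33245 to 101610). Of the 8 epithelial genes, 2 were lowest in mouse 2, against 13.0% of all genes. Krt8 (378190) and Krt19 (204460) lay there within the range of the other libraries. The part of tissue makeup in the high Areg and Hbegf or the low Tgfa of mouse 2 was not tested.

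**Figure D2:**
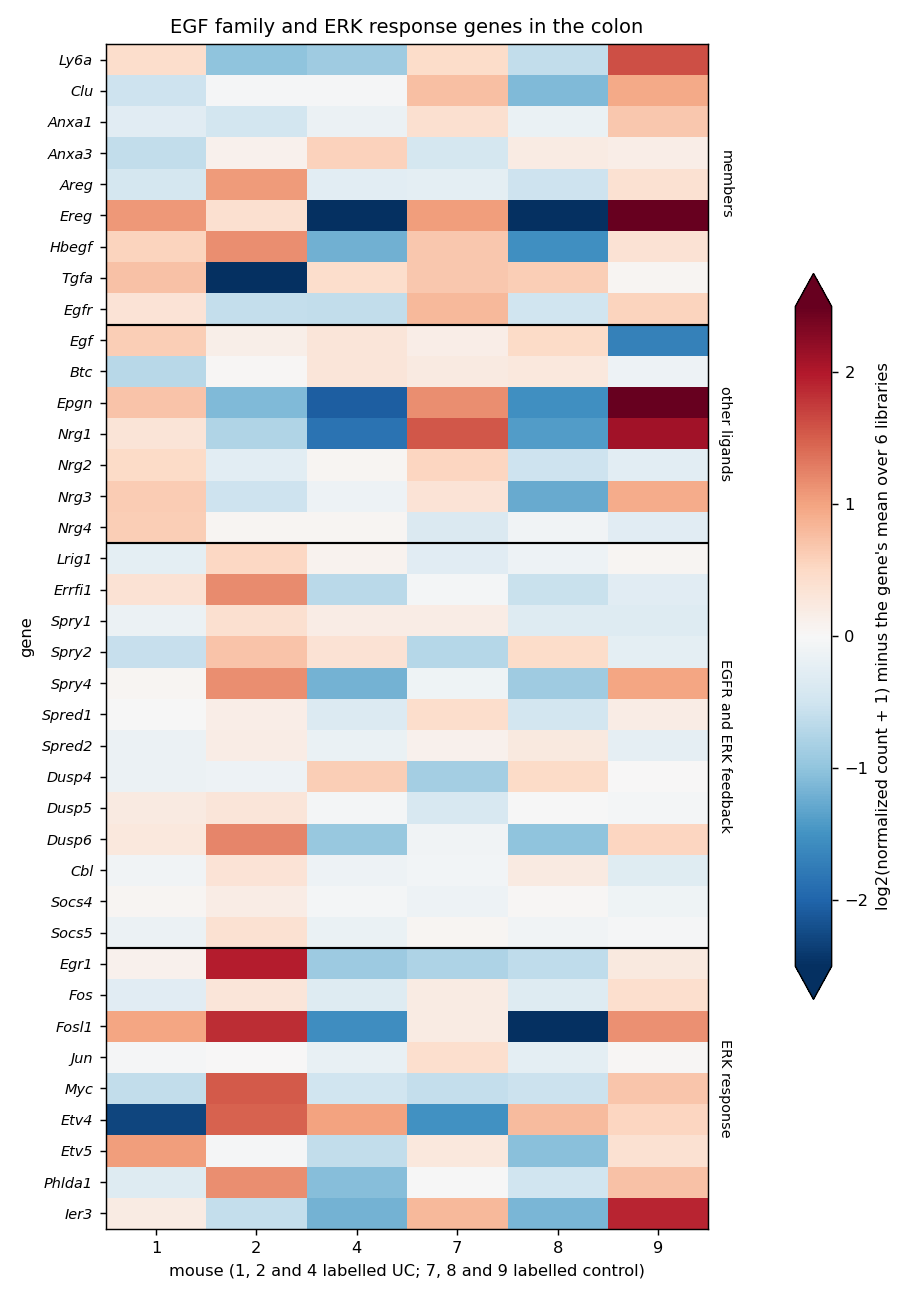
Colour gives log2(normalized count + 1) minus the mean of the gene over the 6 colon libraries; rows are the 9 genes, the other EGF family ligands, genes of EGFR and ERK feedback and ERK response genes, and columns are mice. In mouse 2, Tgfa is at its lowest while Areg, Hbegf, Errfi1, Dusp6 and Egr1 are at their highest, and Ereg is darkest blue in mice 4 and 8.

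Of 16 further genes used as markers of fetal-like repair or of the YAP response, 11 had their 3 highest values in mice 1, 7 and 9. This held for 18.3% of all genes. None of the 16 was SDE (4 higher and 12 lower in libraries labelled UC, median log2FC -0.55). By the naming rule, Cxadr, a tight junction receptor, had 20324 to 40012 normalized counts. Il33, an alarmin, and Plaur, the urokinase receptor, were picked after their values were seen: Il33 had 3479, 502 and 393 and then 4389, 277 and 3572, and Plaur 2538, 796 and 258 and then 1982, 284 and 3913. In both, mice 1, 7 and 9 stood apart from the others by a wider margin than for Ly6a. Ctgf and Cyr61, YAP targets again picked later, were instead highest in mouse 2 (5236 and 1899), as Areg was. They were the only 2 of the 16 highest there, against 14.6% of all genes. Ankrd1 and Amotl2 of the same list were not (45.3 and 1846, against up to 94.8 and 2614 in other libraries).

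Of 7 other Ly6 genes, 6 had their 3 highest values in mice 1, 7 and 9, against 18.3% of all genes. All 7 had a negative log2FC (median -1.09) with none SDE. Ly6e had 10754, 5142 and 9529 normalized counts in mice 1, 2 and 4 and 15355, 2362 and 28730 in mice 7, 8 and 9. Ly6g, known as a neutrophil antigen, had 7350, 16355 and 17455 normalized counts in the colon of mice 2, 4 and 8, where the neutrophil receptor gene Cxcr2, picked later, was at 5.23 or less, and 20824 to 25479 in mice 1, 7 and 9. Of 10 other annexins, 9 were tested and none was SDE (median log2FC -0.11). By the naming rule, Anxa2 had 69059, 53523 and 59977 and then 109752, 80068 and 84859. Its labelled groups did not overlap (log2FC -0.60, SE 0.21, unadjusted p = 0.0254, adjusted p = 1.000, edgeR quasi-likelihood test). This held for 1 of the 9 annexins tested, against 5.41% of all genes tested. Anxa4 had 13949 to 22425.

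Markers of some other cells had their highest values in the same mice as Ly6a, Ereg and Egfr. The 3 highest values lay in mice 1, 7 and 9 for 7 of 7 macrophage genes (Mrc1 among them), 6 of 6 T cell genes and 7 of the 7 neutrophil genes with a mean of at least 10 normalized counts. By the same count this held for 3 of 6 fibroblast, 2 of 6 mast cell, 2 of 4 squamous and 1 of 6 endothelial genes. It held for 0 of 8 epithelial, 0 of 6 smooth muscle, 0 of 4 platelet and 0 of 2 epididymis genes. Over all genes the share was 18.3%. The summed normalized count of the neutrophil genes was 34132, 7531 and 16571 in mice 1, 2 and 4 and 26143, 17813 and 65031 in mice 7, 8 and 9. Ly6g made up most of it in mice 2, 4 and 8: without Ly6g, a sum chosen after seeing the data, it was 12638, 181.1 and 216.1 and then 5319, 358.0 and 39552. The macrophage sum was 21745, 10644 and 12376 and then 31801, 9892 and 32976. The fibroblast sum (Col3a1 among its genes) was lowest in mouse 8, at 77685, and highest in mouse 9, at 226133. The epithelial sum (Krt8 among its genes) was lowest in mouse 9 and highest in mouse 7. Levels of single neutrophil markers differed in mice 2, 4 and 8. There Cxcr2 was at 5.23 or less, S100a9 at 16.5 to 129.8 and Mmp9 at 76.9 to 85.3, all picked later. In mice 1, 7 and 9 these genes were at 190.4, 2137 and 217.5 or more. The smaller sums were 6916 to 14485 for endothelium (with Vwf), 156.3 to 1855 for mast cells (Mcpt1), 224.4 to 1545 for T cells (Cd4), 553.0 to 990.6 for platelets (Pf4), 106.4 to 742.3 for squamous epithelium (Dsg3) and 0 to 789.0 for epididymis (Defb37), of whose 6 markers 3 were at 0 in every colon library. The part of these cells in the members' values was not tested.

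A promoter was available for 4 members (Areg, Tgfa, Egfr and Anxa1; RefSeq, GRCm38.p6). The 250 bases before the start were searched on both strands for 3 motifs of factors that act downstream of growth factor, stretch or cyclic AMP signals: the AP-1 site TGANTCA, the TEAD site CATTCC and the cyclic AMP response element TGACGTCA, which do not overlap one another as written. Areg held 1 response element, whose first base lay 61 bases before the start, as did 1.55% of the 32851 promoters of this length. Anxa1 held 1 TEAD site (12.6% of promoters), and no AP-1 site (6.75% of promoters) was found in the 4. The Areg stretch is shown with the element in capitals, since this was the ligand highest in mouse 2 whose promoter could be read (chr5:91139479-91139598, plus strand).
Areg promoter: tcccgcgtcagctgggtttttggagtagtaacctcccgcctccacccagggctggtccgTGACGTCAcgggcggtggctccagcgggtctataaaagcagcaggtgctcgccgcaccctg
A match is a string of letters, and whether a factor bound there was not measured.

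In the blood, Areg, Ereg, Hbegf, Tgfa and Egfr had 0 counts in each of the 6 libraries, where 3 counts is taken as the limit that a count of 0 allows in a library; such limits cover counting error only. The 4 repair markers were detected, and none of them was SDE between the labelled groups. Of 16759 blood genes tested, 0 were SDE (0.0%; edgeR, lowest adjusted p 0.9998), 241 had an unadjusted p under 0.05, and DESeq2 called 6, none of them a member. Groups without overlap made up 6.5% of the genes and 0 of the 4 members.

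Anxa1 varied the most in blood, with 17043, 1802 and 1800 normalized counts in mice 1, 2 and 4 and 4411, 1625 and 9068 in mice 7, 8 and 9. Its 3 highest values lay in mice 1, 9 and 7, and the other libraries lay between 1625 and 1802. The 3 highest values lay in these mice for 11.8% of the 16370 blood genes with a mean of at least 10 normalized counts. The log2FC of Anxa1 was 0.45 (SE 0.94) and became -1.47 without mouse 1. The summed normalized counts of the 8 neutrophil markers were 458572, 54670 and 47724 and then 153391, 39855 and 351147, in the same order of the 3 highest libraries, and their part in Anxa1 was not tested.

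Anxa3, which neutrophils are known to carry, had 446.5, 224.3 and 91.6 normalized counts in mice 1, 2 and 4 and 127.9, 103.4 and 153.1 in mice 7, 8 and 9. Mouse 1 was 1.99-fold above the next library, and the libraries labelled UC held both the highest and the lowest value (log2FC 0.98, SE 0.52, unadjusted p = 0.0954, edgeR quasi-likelihood test). Ly6a had 464.4, 1010 and 445.1 and then 348.4, 290.7 and 687.6, highest in mouse 2, where its colon value was lowest (log2FC 0.53, SE 0.44). Clu was the steadiest, with 14913, 14576 and 9585 and then 12320, 12708 and 13893, a range of 1.56-fold (log2FC 0.00, SE 0.25). Platelets, which carry clusterin in their granules, are abundant in blood, and the summed platelet markers ran from 159166 (mouse 2) to 204177 (mouse 8). Their part in Clu was not tested.

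Between the tissues, Ly6a and Anxa3 were SDE higher in the colon, Clu was SDE higher in the blood, and Anxa1 was not SDE. Areg, Ereg, Hbegf, Tgfa and Egfr, with 0 counts in every blood library, passed the filter through the colon alone, so their call was fixed and is not read against the share of all genes. Over 20618 genes tested across all 12 libraries with the disease label as covariate, 36.0% were SDE higher in the colon and 21.9% higher in the blood; scaled by library size alone, the split was 16051 genes against 1506, in place of 7429 against 4508. The median log2FC over all genes was 0.33, and 2.47 by library size alone. The colon and blood libraries were depleted of abundant RNA with different kits, which cannot be told apart from the tissue.

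Anxa3 had 64.3 ± 18.1 CPM in the colon (SD, n = 6) and 3.50 ± 2.47 in the blood, a log2FC of 4.28 (SE 0.40, adjusted p = 1.46e-06, edgeR quasi-likelihood test). Ly6a had 72.9 ± 56.6 and 9.87 ± 4.72 CPM (log2FC 2.80, SE 0.51, adjusted p = 3.33e-04, edgeR). Clu was higher in the blood, with 13.4 ± 6.94 CPM in the colon and 238.0 ± 35.4 in the blood (log2FC -4.19, SE 0.34, adjusted p = 4.28e-07, edgeR), and stayed lower in the colon by library size alone (log2FC -2.02). For these 3 genes the libraries of the tissues did not overlap.

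Anxa1 was not SDE, with 110.5 ± 36.6 CPM in the colon and 109.9 ± 113.7 in the blood (SD, n = 6, log2FC -0.01, SE 0.59, adjusted p = 0.988, edgeR quasi-likelihood test). This result turned on the scaling, since by library size alone its log2FC was 2.13 (adjusted p = 0.00355, edgeR). Over all the alternatives run the adjusted p of edgeR, DESeq2 and limma ran from 0.00355 to 0.997. Against the limit of 3 counts in each blood library, the colon mean was at least 239.2-fold higher for Areg, 351.0-fold for Ereg, 185.6-fold for Hbegf, 390.7-fold for Tgfa and 938.3-fold for Egfr. These bounds hold for the mean, not for each colon library. Per kb of exon, Ereg had 0.659 and 0.648 CPM in mice 4 and 8 (mean 11.9), and Tgfa 1.22 in mouse 2 (mean 8.09).

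Of the 7 other ligands, 6 were tested between the tissues, with 5 SDE higher in the colon and 1, Nrg4, higher in the blood; Erbb2 and Erbb3 were both SDE higher in the colon. Btc, Nrg2, Nrg3 and Erbb2 had 0 counts in 4 or more of the 6 blood libraries and passed the filter through the colon. Nrg1 did not pass the filter within the blood either. The calls of these genes are therefore not read against the 36.0% of all genes SDE higher in the colon. Nrg4 turned on the scaling, with a log2FC of -1.34 (adjusted p = 0.00363, edgeR) that became 0.80 by library size alone (adjusted p = 0.0852, edgeR). Of the release genes, Adam10 was higher in the blood (log2FC -2.82, SE 0.22, adjusted p = 2.59e-07, edgeR), Rhbdf1 higher in the colon (4.06, SE 0.33, adjusted p = 4.54e-07, edgeR), and Adam17, Rhbdf2 and Frmd8 were not SDE. By library size alone, which raised the median of all genes as given above, Adam10 was no longer SDE (log2FC -0.70, adjusted p = 0.0298, edgeR). Adam17 (1.17), Rhbdf2 (2.20) and Frmd8 (1.75) were then SDE higher in the colon, and Rhbdf1, Erbb3 and Egf kept their call and direction. Those of Btc, Nrg1, Nrg2, Nrg3 and Erbb2 stayed too, but these genes were in the test through the colon alone.

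Levels of the members were compared with one another per length, as CPM over the genes of the normalized table divided by the kilobases of exon. In the colon the order was Ly6a (149.2 ± 120.8 CPM per kb, SD, n = 6), Anxa1 (93.2 ± 32.4), Anxa3 (43.3 ± 12.6), Areg (27.4 ± 14.8), Ereg (11.9 ± 16.2), Egfr (11.3 ± 5.07), Clu (9.61 ± 5.13), Tgfa (8.09 ± 3.62) and Hbegf (5.32 ± 3.26). Neighbours in this order overlapped in their libraries, except Anxa1 (67.8 to 147.9) and Anxa3 (25.9 to 60.0). Areg was thus the highest of the 4 ligands on average, although Ereg reached 43.9 in mouse 9 and Areg 54.8 in mouse 2. Egfr stood below its partners Erbb3 (116.7 ± 26.5) and Erbb2 (54.3 ± 12.8). In the blood the order was Clu (78.0 ± 8.14), Anxa1 (39.2 ± 33.8), Ly6a (9.30 ± 4.31) and Anxa3 (1.01 ± 0.50), of which only Ly6a and Anxa3 did not overlap as neighbours.

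**Figure D3:**
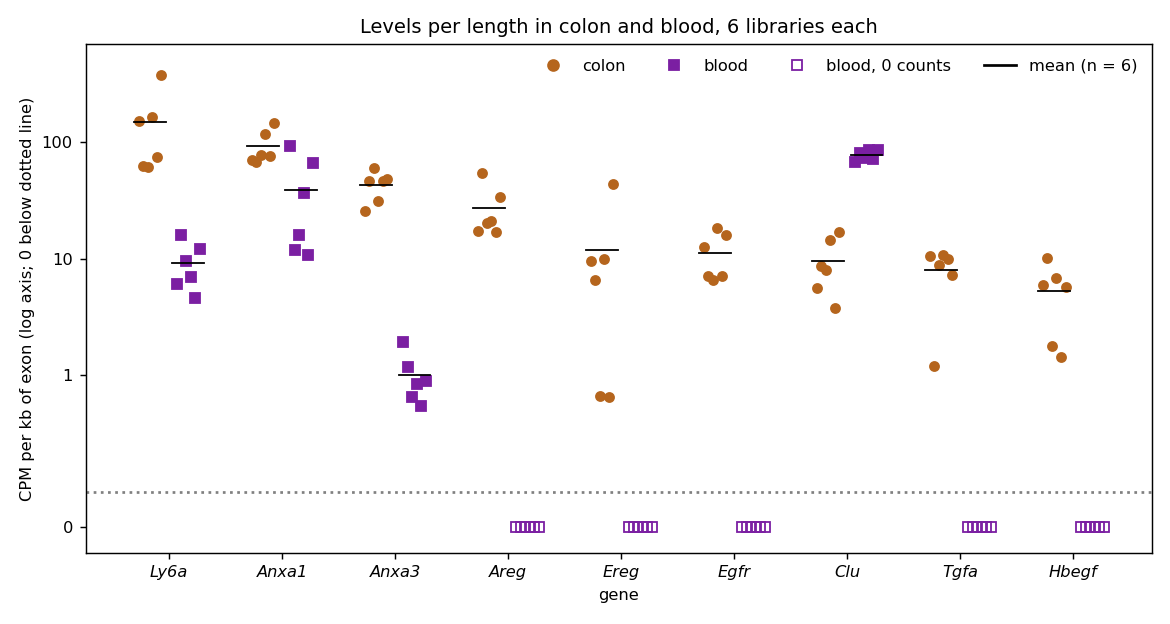
CPM per kb of exon (log axis) of the 9 genes in 6 colon libraries (brown circles) and 6 blood libraries (purple squares), with the mean as a line; open squares under the dotted line are libraries with 0 counts. Clu is higher in the blood (mean 78.0) than in the colon (9.61), and the 4 ligands and Egfr have no counts in the blood.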

How the data were processed

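Total RNA of colon and blood was sequenced by the authors after removal of ribosomal RNA (and globin RNA in blood). After trimming and cleaning, reads were aligned with STAR (GRCm38) and quantified by StringTie 1.3.4c on the Ensembl 92 annotation. Each deposited count was calculated by the authors from transcript coverage, so the whole numbers are not a tally of reads, and no strand setting is given in the sources used here. The deposited normalized values are a signal scale, made by the authors by dividing the count by 1 size factor per library (0.791 to 1.21 in the colon, 0.664 to 1.31 in the blood), with some abundant RNA genes left out. The tables were normalized separately, so these values were set side by side within 1 tissue only.

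Tests used edgeR 4.0.16 under R 4.3.3 (TMM, filterByExpr, glmQLFit, glmQLFTest, Benjamini-Hochberg over all genes tested); SE is the log2FC over the square root of F. The study fitted each tissue alone with DESeq2, which was an alternative here (version 1.42.0), as were limma-voom (limma 3.58.1), robust edgeR, RLE factors, library size alone, other filters, a stricter threshold, and each mouse left out. Nothing in the labels says how samples of a group were kept apart beyond the mouse number. Within a tissue, p-values measure the spread between these mice. The main test between tissues treated the colon and blood libraries of a mouse as independent, and the replicate block was its alternative. Mouse numbers pair colon with blood, since the study drew both from the same animals. Deviations of same-numbered libraries from their labelled group means correlated by 0.0073 to 0.233 over 15802 genes, which are not independent replicates. Libraries of different mice were not correlated in this way, so these values cannot test the pairing.

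Members and gene lists (155 genes, all found by symbol) were chosen with earlier results of these data known. Named genes were the members, all other ligands, receptors and release genes, the 2 highest genes by colon mean of each other list, S100a8, the 3 nearest profiles of members with a log2 range of at least 2 (genes with a mean of at least 100) and the highest gene of each cell type list; these means are normalized counts, not per length, and rank no gene against another. Others are said to be picked after their values were seen. Of the genes this rule names, 2 are not reported here. GENCODE vM21 held 53620 of the identifiers. The test step was tested on simulated data with a dispersion of 0.05, which is below that of these libraries (biological coefficient of variation, the square root of the dispersion, 0.503 in the colon, 0.417 in the blood and 0.451 between tissues), so it says nothing of power here. Sequences came from GENCODE vM21 and, for promoters, RefSeq. Python 3.11.15 and pandas 2.3.3 were used for descriptions.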

Additional observations from a re-analysis of the deposited data

Results flagged for a closer look

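In 4 cases a single library stood far from the others of its tissue. Each of 13 sets of 6 libraries (a member in a tissue, both disease labels pooled) was checked for the gap between its highest or lowest library and the next, divided by the whole range, on 2 scales, and named where it passed Dixon's 95% critical value for 6 samples; chance alone flags about 1 in 20 groups on 1 scale, and more where a group is checked on both. On the log2 scale, Tgfa in the colon of mouse 2 (556 normalized counts, against 3330 to 5332 in the others) had a gap of 0.792 of the range, and 0.581 on the linear scale. On the linear scale, Ereg in the colon of mouse 9 (12880 normalized counts) had a gap of 0.772, against 0.344 in log2. Ly6a in the colon of mouse 9 (32318) had 0.655, against 0.439 in log2, and Anxa3 in the blood of mouse 1 (446.5) had 0.626, against 0.435 in log2. None of the 4 passed on both scales.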

How the results depend on the processing

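No member was SDE between the labelled groups of either tissue under any alternative run, and Ly6a, Anxa3 and Clu kept their direction and call between the tissues under each of them. The calls of the 5 members with 0 counts in blood could not turn. The number of SDE genes was small and moved: in the colon it was 6 with DESeq2, 0 with limma-voom, 0 at an adjusted p of at most 0.01 and 0 to 0 with each mouse left out, against 1. In the blood it was 6 with DESeq2, 1 by library size alone and 0 to 3 with each mouse left out, against 0. Between the tissues, library size alone gave 16051 genes higher in the colon and 1506 higher in the blood.

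Some log2FC values of members that were not SDE changed sign. With 1 mouse left out, the colon log2FC ran from -0.29 to 0.64 for Areg (lowest without mouse 2), from -0.19 to 0.77 for Hbegf (lowest without mouse 2, and -0.059 without mouse 8), from -0.88 to 0.10 for Tgfa (highest without mouse 2), from -0.23 to 0.33 for Anxa3 (below 0 without mouse 4 and, at -0.10, without mouse 7) and from -2.32 to 0.079 for Ereg (highest without mouse 9). In the blood, where library size alone moved the median of all genes to -0.27, Clu was -0.35 by library size alone, -0.017 without genes outside the normalized tables, -0.013 with limma-voom and -0.099 to 0.18 with each mouse left out. Anxa1 in the blood was -0.27 by library size alone, -0.061 with limma-voom and -1.47 (without mouse 1) to 1.19 with each mouse left out. Between the tissues, Anxa1 was 0.069 with RLE factors, 0.071 without genes outside the tables, 0.069 with DESeq2, 0.13 with no filter, 0.56 with limma-voom, 2.13 by library size alone and -0.17 to 0.88 (without mouse 1) with each mouse left out. The cause was not tested. The replicate block, which uses the pairing of colon and blood by mouse, gave 0.63 for Anxa1 (adjusted p = 0.247, edgeR) and changed no call of a member.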
